A study of Mus musculus with 9 samples.

Results

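The genes described here are 10 that muscle and its vessels use to attract and hold leukocytes: the cytokines Il15 and Il18, the CC chemokines Ccl2, Ccl7 and Ccl8, the CXC chemokines Cxcl12, Cxcl14 and Cxcl16, and the adhesion molecules Icam1 and Vcam1. They were chosen by name, as every probe set that the platform annotation assigns to these genes, which gave 10 of the 18193 genes named on the array, read by 16 of its 45101 probe sets. A probe set is a group of short probes that together read 1 transcript. Values are deposited log2 expression, so a difference of 1 is a doubling, and they are given as mean ± SD (n = 3 arrays) or as log2 difference ± SE.

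The 9 samples were thigh muscle (quadriceps femoris) of female C57Bl/6 HT transgenic mice, 3 in each of 3 groups, with 1 array each. Whether each sample came from its own mouse is not settled in the sources used here. In this line doxycycline, an antibiotic, represses transgenic expression of self MHC class I. Control mice received doxycycline throughout and were taken at 35 days of age. Early mice had it withdrawn at 21 days and were taken at 35 days, whereas late mice had it withdrawn at 35 days and were taken at 50 days. All 9 samples carry 1 strain label, but the protocol describes control littermates as single transgenic, so whether controls differed in genotype is not settled. The promoter that drives the transgene is not given in the sources used here. Late mice were older than the others, so in each comparison with them age and induction cannot be told apart, and early and control mice of 1 age also differed in doxycycline.

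IL-15 is made by muscle fibres and myeloid cells, and is carried to T and NK cells on the IL-15 receptor alpha chain of the cell that makes it. Chemokines are small secreted proteins that draw leukocytes along a gradient through receptors on the leukocyte. CCL2 and CCL7 act mainly on monocytes through CCR2 and related receptors, CXCL12 acts through CXCR4, and CXCL16 through CXCR6. ICAM-1 and VCAM-1 stand on the vessel wall and bind leukocyte integrins, ICAM-1 those with the beta-2 chain (Itgb2) and VCAM-1 the one with the alpha-4 chain (Itga4). In inflamed muscle these molecules are known for their part in the entry of T cells and macrophages, and Icam1 is a textbook target of the transcription factor NF-kappaB and of interferon gamma.

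Promoter windows were matched in RefSeq (GRCm38.p6) for 5 of the 10 genes: Cxcl12, Icam1, Il18, Ccl8 and Cxcl14. The 250 bases before a start site are shown for 1 adhesion gene and 1 chemokine gene whose windows held matches to inflammatory motifs, with motif matches on either strand in capitals. The search covered the NF-kappaB consensus by name, GGAAATTCC (the NF-kappaB site known from Icam1), the gamma-activated site TTCNNNGAA, the interferon-stimulated element (GAAA, any 2 bases, GAAA) and TATAAA.
Icam1, chr9:21015690-21015939, plus strand: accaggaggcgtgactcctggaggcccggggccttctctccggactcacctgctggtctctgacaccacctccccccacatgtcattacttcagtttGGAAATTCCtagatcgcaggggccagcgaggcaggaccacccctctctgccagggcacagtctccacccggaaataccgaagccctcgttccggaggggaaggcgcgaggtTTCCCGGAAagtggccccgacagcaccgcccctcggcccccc
Cxcl14, chr13:56296552-56296801, minus strand: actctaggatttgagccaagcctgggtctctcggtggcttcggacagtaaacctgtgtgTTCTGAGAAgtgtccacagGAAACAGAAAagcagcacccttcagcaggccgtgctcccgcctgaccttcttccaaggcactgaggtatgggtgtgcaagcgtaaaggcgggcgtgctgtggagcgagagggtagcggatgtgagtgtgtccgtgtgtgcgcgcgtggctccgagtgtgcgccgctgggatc
In Icam1 the capitals mark GGAAATTCC at 153 to 145 bases before the start and a gamma-activated site at 42 to 34 bases before it. In Cxcl14 they mark a gamma-activated site at 191 to 183 bases and an interferon-stimulated element at 172 to 163 bases before the start. The Cxcl14 window is counted from a start that lies 260 bases inside the outer end of the annotated gene, so the letters shown are within that gene, whereas the Icam1 window ends at the gene's outer start. Of 32851 promoter windows of the same length, 0.286% held GGAAATTCC, 7.02% the gamma-activated site, 2.98% the interferon-stimulated element, 3.9% the NF-kappaB consensus and 12.4% TATAAA. The NF-kappaB consensus matched 0 of the 5 windows, TATAAA matched in Ccl8 and Il18, and Cxcl12 held 0 of the motifs. A match is a description of the letters and was not tested as a site.

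The induction was visible in the class I gene H2-K1, at 10.52 ± 0.34 in control, 14.66 ± 0.03 in early and 13.87 ± 0.66 in late muscle. The tissue label held: all 14 skeletal muscle markers examined were measured, led by Acta1 and Tnnt3. By contrast 0 of 15 T and NK cell markers passed the filter on dim probe sets, which asked for a log2 value above 5 in at least 3 arrays; only Cd247 exceeded 5 at all, in control 2 and 3. Among the 9 arrays, early 3, late 1 and early 1 had the smallest weights when arrays were weighted by their agreement with their group (0.238, 0.288 and 0.376, against 3.39 for the highest). Early 3 lay apart from early 1 and 2 in macrophage markers, whose sum over 18 genes was 2.04, 1.64 and 0.805 times the control mean in early 1, 2 and 3. Such a sum leans on bright genes, among them Cd68, at 12.06, 11.17 and 6.23 in those arrays and 7.27 ± 0.59 in control. The median gene differed from its control mean by 0.852, 0.481 and -0.245. In early against control 16 of the 18 were positive and 2 negative. Of them 0 were called and 0 had an unadjusted p under 0.05 (18.5% of all genes).

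Of the 10 genes, 7 were bright enough to be tested and 2 were called in any comparison: Il15 and Vcam1, both lower in early than in late muscle, a comparison in which 11.5% of all genes tested were called. Il15 stood near its control level in early muscle and above it in every late sample. Vcam1 was the reverse, near its control level in late muscle and below it in every early sample. On the brighter of its probe sets, but not on the other, Cxcl14 was lower in every early sample than in any control. Icam1 had higher means in both induced groups, and the abundant Cxcl12 moved by less than its spread. Ccl2, Ccl7 and Cxcl16 stayed below 5 in every array. The tests below come from limma fitted across 9697 genes, with p-values adjusted over all of them. Of the 7 genes, 6 lay above 5 in all 9 arrays and Ccl8 in 8, so none passed the filter through 1 group.

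**Figure D1:**
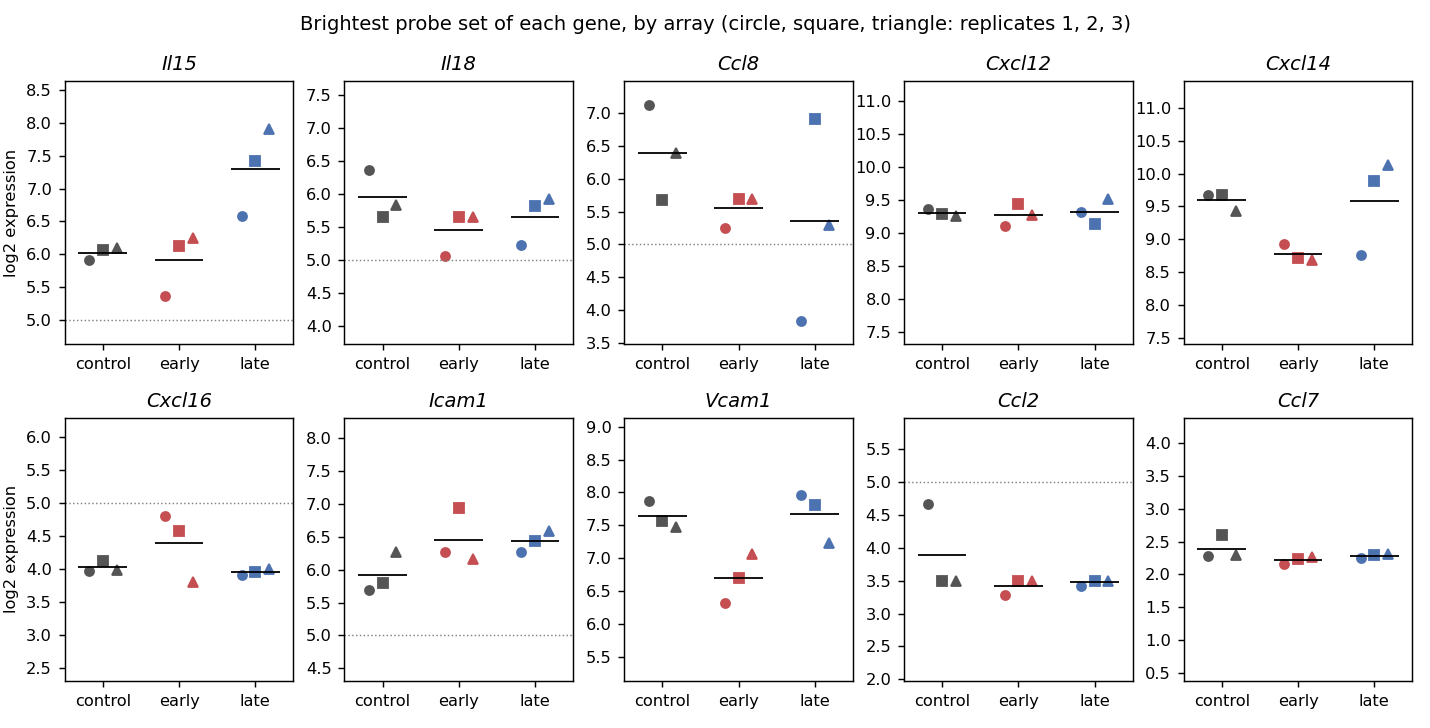
Log2 expression of the brightest probe set of each of the 10 genes (y axis, the same span of log2 units in each panel) in control, early and late muscle (x axis), with 1 point per array, a bar at the group mean and a dotted line at the filter value of 5. Il15 is high in the 3 late arrays, from 6.59 to 7.90, Vcam1 is low in the 3 early arrays, from 6.32 to 7.07, and every point of Cxcl16, Ccl2 and Ccl7 lies below 5.

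Il15, which sustains T, NK and memory CD8 cells and is also a cytokine of the muscle fibre itself, was read by 1 probe set. Its log2 values were 5.91, 6.07 and 6.10 in control 1, 2 and 3, 5.37, 6.12 and 6.26 in early 1, 2 and 3, and 6.59, 7.42 and 7.90 in late 1, 2 and 3. Every late array was above every control and every early array, while early and control values overlapped, with early 1 the lowest of the 9. Late muscle was thus 2.42-fold higher than control (1.28 ± 0.34, adjusted p = 0.136), a difference that did not pass, although it was the gene ranked 63 by size of rise among the 9697 genes. Early muscle was 2.62-fold lower than late (-1.39 ± 0.34, adjusted p = 0.0376), which passed. Early against control was -0.11 ± 0.34, with a 95% interval from -0.88 to 0.66. The early and late call was kept without early 3 or late 1 (-1.56 and -1.75, adjusted p = 0.0172 and 0.0294) and was lost without any other array, with adjusted p from 0.0614 to 0.112. In that comparison 30.5% of all genes were called without early 3 and 3.03% without late 1, against 11.5% with all arrays. In bulk muscle, more cells that make a transcript and more transcript per cell cannot be told apart, for this gene and for those below.

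The receptor chain that presents IL-15, Il15ra, had a similar order of groups. It was 6.17 ± 0.18 in control, 6.08 ± 0.33 in early and 7.03 ± 0.56 in late muscle, and its values in late 1, 2 and 3 were 7.43, 7.26 and 6.38, all above the highest control at 6.36. The difference was 0.85 ± 0.28 in late against control (adjusted p = 0.201) and -0.95 ± 0.28 in early against late (adjusted p = 0.0615), and neither passed. The order of arrays was not that of Il15, since Il15ra was highest in late 1, where Il15 was lowest of the late arrays. Il2rb, the receptor chain on the responding T and NK cells, was below the filter with a mean of 2.21 over the 9 arrays.

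Among all genes, those whose values over the 9 arrays ran closest to Il15 were Hbs1l (Pearson r = 0.969), Casd1 (r = 0.967) and Usp24 (r = 0.963), and 0.454% of genes had an r above 0.9. These correlations are a description over 9 arrays that share the 3 groups. Skeletal muscle markers, summed over 14 genes, were 0.936, 0.965 and 0.964 times the control mean in early 1, 2 and 3 and 1 to 1.09 times it in the late arrays. In that list Ryr1, the calcium release channel, and Cacna1s, its voltage sensor, were lower in early than late muscle (-0.70 ± 0.16, adjusted p = 0.0352, and -0.79 ± 0.18, adjusted p = 0.0328). The other 12 of the 14 were not called in that comparison, where 11.5% of all genes were. Over the 14, 10 were negative and 4 positive (median -0.10). Ptprc, the pan-leukocyte CD45 gene, was 6.69 ± 0.55 in control, 7.60 ± 0.83 in early and 7.86 ± 0.23 in late muscle. The macrophage list did not go 1 way in late against control: 8 of the 18 tested, Ptprc among them, were positive and 10 negative (median -0.05). The negative ones included the complement genes C1qa (-1.17 ± 0.46, adjusted p = 0.25) and C1qb (-0.62 ± 0.28, adjusted p = 0.292). The positive ones included Fcgr3 (0.42 ± 0.22, adjusted p = 0.357) and Cd163 (0.38 ± 0.25, adjusted p = 0.454). The list's sum was 0.825, 1.07 and 0.974 times the control mean in late 1, 2 and 3. C1qa was higher in early than in late muscle (1.70 ± 0.46, adjusted p = 0.0468), the only 1 of the 18 called there, beside 11.5% of all genes. The part of these muscle and macrophage markers in the Il15 values was not tested.

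Il18, a cytokine released after cleavage by caspase-1, differed little. It was 6.37, 5.65 and 5.83 in control 1, 2 and 3, 5.07, 5.65 and 5.65 in early 1, 2 and 3, and 5.23, 5.82 and 5.92 in late 1, 2 and 3. The groups overlapped, array 1 was the highest control and the lowest of each induced group, and control 2, early 2 and early 3 held exactly the same deposited value. Against control the difference was -0.50 ± 0.27 in early (adjusted p = 0.34) and -0.30 ± 0.27 in late muscle (adjusted p = 0.603), with 95% intervals from -1.10 to 0.11 and from -0.90 to 0.31. The early value was -0.29 without control 1 and -0.30 without early 1, and the late value -0.08 without either control 1 or late 1. Of its partners, the receptor chains Il18r1 (mean 2.36) and Il18rap (2.36), the protease Casp1 (3.03), the sensor Nlrp3 (2.34) and the decoy Il18bp (3.96) did not pass the filter, and of these only Il18bp exceeded 5, at 5.07 in early 2.

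Of the 3 CC chemokines described only Ccl8 could be tested, and its arrays scattered more than those of any other of the 7 genes. Its values were 7.12, 5.68 and 6.39 in control 1, 2 and 3, 5.25, 5.69 and 5.69 in early 1, 2 and 3, and 3.84, 6.91 and 5.30 in late 1, 2 and 3. Late 1 was the lowest of all arrays and late 2 was second only to control 1, so the late arrays covered most of the range. Early against control was -0.85 ± 0.67 (adjusted p = 0.517) and late against control -1.05 ± 0.67 (adjusted p = 0.453). Leaving out 1 array moved the first from -0.49 (without control 1) to -1.21 (without control 2), and the second from -0.29 (without late 1) to -1.83 (without late 2), with -0.13 under array weights. The early against late difference of 0.20 ± 0.67 became -0.56 without late 1.

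Ccl2 and Ccl7 did not rise into the measurable range in any array. Ccl2, the best known monocyte attractant, was 4.67 in control 1 and between 3.29 and 3.50 in the other 8 arrays, of which early 2, early 3 and late 2 held exactly the same value. Ccl7 lay between 2.16 and 2.60 throughout. With no filter, the early against control difference was -0.46 ± 0.30 for Ccl2 (adjusted p = 0.605) and -0.17 ± 0.09 for Ccl7 (adjusted p = 0.487). Of their receptors, Ccr1 lay between 4.05 and 4.83, and Ccr2, the main receptor of CCL2, was 4.81, 6.62 and 3.99 in early 1, 2 and 3 and between 3.56 and 4.41 in the other 6 arrays. Ccr2 was thus highest in early 1 and 2, the arrays with the highest macrophage marker sums, and had no test. Neither gene was read above 5 in any array, and falls or small changes at these levels were not detectable.

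Cxcl12, which keeps CXCR4-bearing cells in tissue and guides progenitors, was the most even of the genes. Its brightest probe set read 9.37, 9.29 and 9.25 in control 1, 2 and 3, 9.11, 9.45 and 9.28 in early 1, 2 and 3, and 9.32, 9.13 and 9.51 in late 1, 2 and 3. The groups overlapped, and the 95% interval of the difference was -0.36 to 0.31 in early and -0.32 to 0.36 in late muscle against control. A second bright probe set gave 9.07 ± 0.03, 9.07 ± 0.13 and 9.37 ± 0.27 in control, early and late muscle, with late against control at 0.29 ± 0.16 (adjusted p = 0.39 over the 16048 probe sets that passed the filter). The third was dim, between 2.34 and 2.45. The genes closest to Cxcl12 over the 9 arrays were Gmeb2 (Pearson r = 0.926), Bckdk (r = 0.867) and Elmo2 (r = 0.858).

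The receptors of CXCL12 varied more than the ligand. Ackr3, an atypical receptor that takes CXCL12 up without the usual signal, was 11.04 ± 0.17 in control and 10.69 ± 0.58 in late muscle, and 8.83, 9.80 and 10.69 in early 1, 2 and 3. Every early array was below every control, and the difference of -1.26 ± 0.44 did not pass (adjusted p = 0.198). Cxcr4 was likewise below all controls in the early arrays, at 4.89 ± 0.35 against 5.76 ± 0.61 (-0.87 ± 0.42, adjusted p = 0.303).

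Cxcl14, a chemokine made constitutively by many tissues, muscle among them, was lower in early muscle. Its brightest probe set gave 9.68, 9.67 and 9.43 in control 1, 2 and 3, 8.92, 8.72 and 8.68 in early 1, 2 and 3, and 8.76, 9.88 and 10.13 in late 1, 2 and 3. The 3 early values were tightly grouped below all controls, whereas late 1 sat with the early arrays and late 2 and 3 above the controls. Early against control was a 1.76-fold lower level (-0.82 ± 0.31) that did not pass with all arrays (adjusted p = 0.224) and passed without late 1 (adjusted p = 0.0443). Early against late was -0.81 ± 0.31 (adjusted p = 0.109) and, without late 1, -1.23 (adjusted p = 0.0213). The other probe set did not repeat this: it gave 8.46 ± 0.33, 8.07 ± 0.53 and 8.11 ± 0.21 in control, early and late muscle, with early 1 at 8.68 inside the control range and early against control at -0.38 ± 0.28 (adjusted p = 0.498 over probe sets).

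Cxcl16, a membrane-bound chemokine of macrophages and endothelium that draws CXCR6-bearing T cells, was dim but uneven in early muscle. On the brighter of its 2 probe sets it was 3.96, 4.13 and 3.98 in control 1, 2 and 3, 4.80, 4.57 and 3.80 in early 1, 2 and 3, and 3.90, 3.95 and 3.99 in late 1, 2 and 3. Early 1 and 2 were the highest of the 9 arrays and early 3 the lowest. The macrophage marker sums given above were likewise highest in early 1 and 2 and lowest in early 3, and their part in Cxcl16 was not tested. With no filter, early against control was 0.37 ± 0.23 (adjusted p = 0.598). The other probe set lay between 2.62 and 2.85, and the receptor Cxcr6 was below the filter (mean 3.07).

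Icam1 had a higher mean in both induced groups without passing. It was 5.69, 5.80 and 6.27 in control 1, 2 and 3, 6.27, 6.93 and 6.16 in early 1, 2 and 3, and 6.27, 6.44 and 6.59 in late 1, 2 and 3, and the value of 6.27 in control 3, early 1 and late 1 was identical to the last deposited digit. Control 3 touched the induced ranges, so the groups overlapped. The differences from control were 0.53 ± 0.24 in early (1.45-fold, adjusted p = 0.273) and 0.51 ± 0.24 in late muscle (1.43-fold, adjusted p = 0.309), with 95% intervals from -0.004 to 1.07 and from -0.02 to 1.05. Without early 2, the highest array, the early difference was 0.30. Early and late muscle differed by 0.02 ± 0.24. The integrin chain that binds ICAM-1, Itgb2, was 5.48 ± 0.34, 5.57 ± 0.36 and 6.41 ± 0.88 in control, early and late muscle, with late 1 alone at 7.43 (late against control 0.93 ± 0.41, adjusted p = 0.287). Its partner chains Itgal (mean 2.94) and Itgam (2.72) were below the filter.

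Vcam1, which holds integrin alpha-4-bearing leukocytes and is also carried by satellite cells and stromal cells, went the other way in early muscle. Its only bright probe set gave 7.87, 7.56 and 7.48 in control 1, 2 and 3, 6.32, 6.70 and 7.07 in early 1, 2 and 3, and 7.95, 7.81 and 7.23 in late 1, 2 and 3. All 3 early arrays were below all controls and all late arrays, and late and control arrays overlapped. Early muscle was 1.96-fold lower than late (-0.97 ± 0.25, adjusted p = 0.0422), which passed, and 1.92-fold lower than control (-0.94 ± 0.25, adjusted p = 0.13), which did not. Without early 3, the highest of the early arrays, early against control was -1.13 and passed (adjusted p = 0.0186). That fit called 18.1% of all genes, against 1.19% with all arrays. Late against control was 0.03 ± 0.25, with a 95% interval from -0.53 to 0.59. The early and late call was kept without early 3 or late 3 and lost without any other array (adjusted p from 0.0614 to 0.127). In that comparison 30.5% of all genes were called without early 3 and 7.5% without late 3. With the replicate number as a block, the Vcam1 call was lost too (adjusted p = 0.0624), whereas the Il15 call was kept (adjusted p = 0.0253). The labels do not say that arrays of the same number are paired.

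The other 2 Vcam1 probe sets were dim, between 4.47 and 5.42 and between 4.12 and 4.46, and had no test. The genes closest to Vcam1 over the 9 arrays were Glb1l2 (Pearson r = 0.972), Hat1 (r = 0.957) and Fgfr1 (r = 0.956), and 1.06% of genes had an r above 0.9. Itga4, the chain of its leukocyte partner, was 8.44 ± 0.18 in control and 8.40 ± 0.46 in late muscle, and 5.52, 6.09 and 8.27 in early 1, 2 and 3. Early 1 and 2 were thus far below every other array and early 3 level with the lowest control at 8.27 (-1.82 ± 0.61 against control, adjusted p = 0.184).

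Vessel markers mostly had lower values beside Vcam1 in early against control: of 16 endothelial genes, all tested, 13 were negative and 3 positive. Over all genes 45.9% were positive. Of the 16 endothelial genes 0 were called (1.19% of all genes) and 2 had an unadjusted p under 0.05 (18.5% of all genes). Their sum was 0.695, 0.862 and 0.862 times the control mean in early 1, 2 and 3, against 0.912 to 1.05 in the controls and 0.813, 0.984 and 0.883 in late 1, 2 and 3. The brightest of them, Esam and Egfl7, differed from control by -0.40 ± 0.16 and -0.22 ± 0.16 in early and by -0.42 ± 0.16 and -0.57 ± 0.16 in late muscle. The list did not go 1 way in early against late, where 5 of the 16 were positive and 11 negative. Vwf, the endothelial clotting factor, was lower in early muscle (-1.04 ± 0.24, adjusted p = 0.0327), the only 1 of the 16 called there, beside 11.5% of all genes. Cldn5, an endothelial tight junction gene, had a positive difference that did not pass (1.10 ± 0.31, adjusted p = 0.0518), with a late against control value of -1.41 ± 0.31 (adjusted p = 0.0966). Also lower in early than in late muscle was Myh11, smooth muscle myosin (-1.28 ± 0.15, adjusted p = 0.00578). It was the only 1 called of 10 smooth muscle and pericyte markers tested, beside 11.5% of all genes. Of those markers 6 were negative and 4 positive there (median -0.24). The brightest of them, Des, is also on the skeletal muscle list and was among the positive ones (0.33 ± 0.26). The part of vessel content in the Vcam1 values was not tested.

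**Figure D2:**
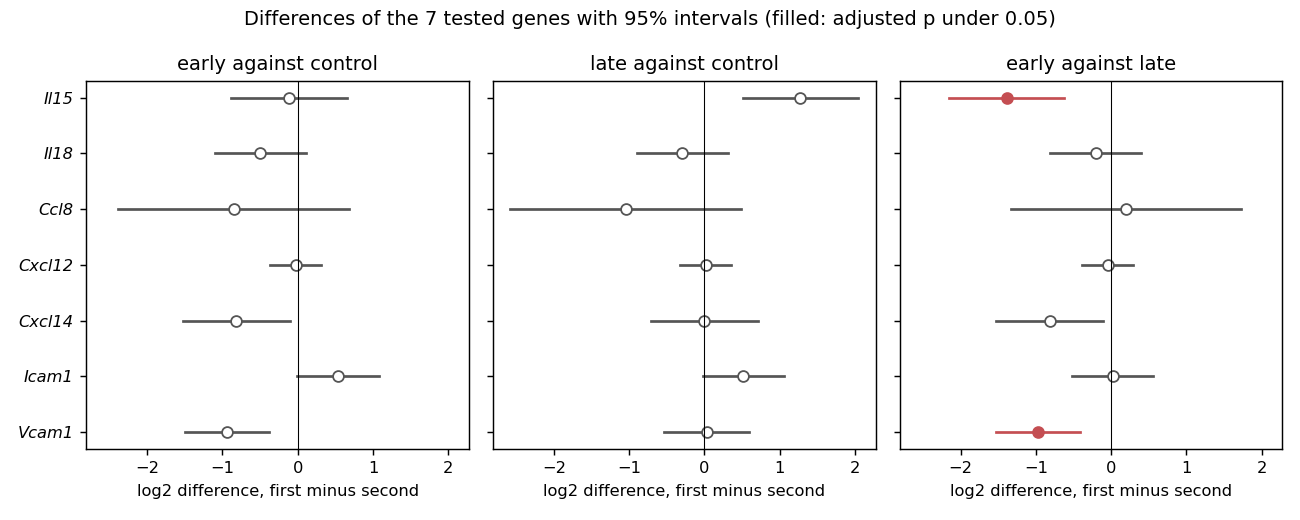
Log2 differences (x axis) of the 7 tested genes (y axis) in the 3 comparisons, with 95% intervals from the limma fit as lines, filled red points where the adjusted p was under 0.05 and open points otherwise. Red points appear for Il15 (-1.39) and Vcam1 (-0.97) in early against late muscle, and the interval of Ccl8 is the widest.

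Counted over the list, early against control had 0 of 7 genes called, where 1.19% of all genes tested were called. At an unadjusted p under 0.05 there were 2, Cxcl14 and Vcam1 (18.5% of all genes), and both had groups that did not overlap, on the lower side (13.9% of all genes). The median difference of the 7 was -0.50, against -0.03 over all genes. Late against control had 0 of 7 called (0.206% of all genes). At an unadjusted p under 0.05 there was 1, Il15 (17.3% of all genes), which was also the only gene of the 7 with groups that did not overlap (16% of all genes on the higher side); the median was 0.02, against 0.01 over all genes. Early against late had 2 of 7 called, both lower (6.23% of all genes were called lower, and 11.5% in either direction). At an unadjusted p under 0.05 there were 3, Cxcl14 being the third (34.2% of all genes), and Il15 and Vcam1 had groups that did not overlap, on the lower side (18.3% of all genes), with a median of -0.20 against -0.03. Early and late muscle share their controls, and nothing particular to the list is read from these counts.

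Receptors of the 10 genes were mostly too dim to read: of 21 listed, 7 were tested. In early against control 0 of 7 were called, 3 had an unadjusted p under 0.05, and 5 had negative values (median -0.53). The shares of all genes at that unadjusted p, here and for the lists that follow, were 18.5% in early against control, 17.3% in late against control and 34.2% in early against late. Ackr1, which binds chemokines on venules, differed by -0.53 ± 0.17 (adjusted p = 0.174), with every early array below every control. In late against control 0 of 7 were called and 2 had an unadjusted p under 0.05, Il15ra and Itgb2 (median -0.05). In early against late 0 of 7 were called and 2 had an unadjusted p under 0.05 (median -0.84). Without early 3 the number called was 2 in early against control and 3 in early against late, while the share of all genes called rose to 18.1% and 30.5%.

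**Figure D3:**
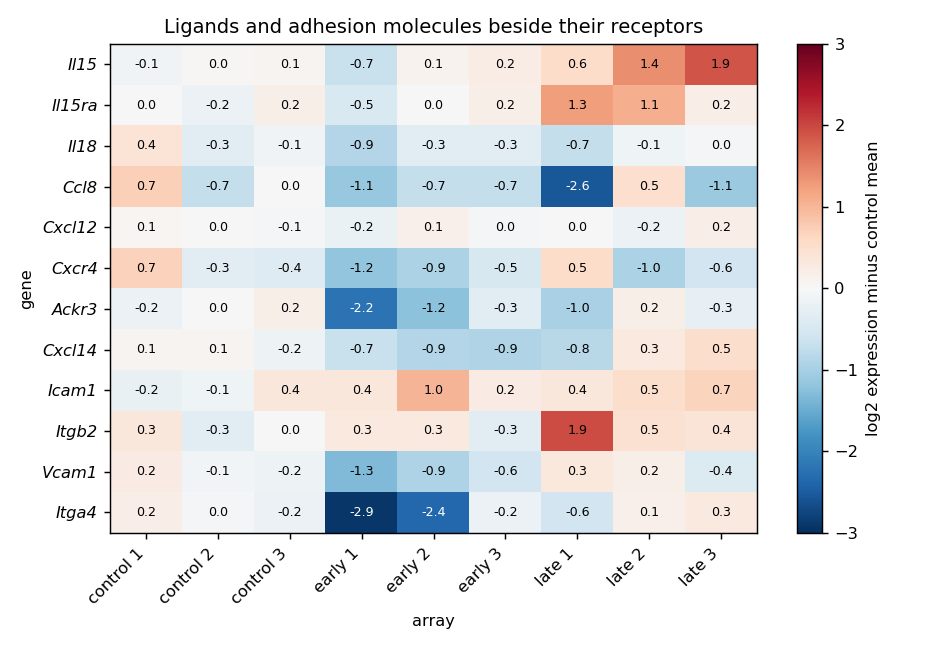
Log2 expression minus the control mean (colour, and the number in each cell) of 7 of the 10 genes and of receptors or integrin chains that bind them (rows) in each of the 9 arrays (columns). Il15 is red in the late columns, Vcam1, Ackr3 and Itga4 are blue in early 1 and 2, and Cxcl12 is pale throughout.

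Of 27 other chemokines 8 were tested, and 0 were called in any of the 3 comparisons, with 1 at an unadjusted p under 0.05 in each. Ccl27a, a skin and stromal chemokine, was 6.28 ± 0.19 in control, 6.95 ± 0.66 in early and 7.31 ± 0.12 in late muscle. Both induced groups lay above all controls, by 0.67 ± 0.29 (adjusted p = 0.263) and 1.03 ± 0.29 (adjusted p = 0.15). The macrophage chemokines Ccl6 and Ccl9 differed from control by 0.58 ± 0.35 and 0.64 ± 0.30 in early muscle, and the eosinophil attractant Ccl11 by -0.59 ± 0.41, none of which passed. Ccl11 was lower in every early than in any late array (-1.01 ± 0.41, adjusted p = 0.122), and Ccl25, a thymus and gut chemokine, differed by -0.35 ± 0.21 there. Pf4, a platelet chemokine, differed by -0.38 ± 0.23 in late against control. 

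The filter also removed chemokines that were high in 1 or 2 arrays, which have no test here and were named after their values were seen. Cxcl10, an interferon-induced attractant of T cells, was 8.97 and 10.26 in early 1 and 2, and between 3.63 and 3.72 in early 3 and the 6 other arrays. Cx3cl1, a membrane-bound chemokine of endothelium, was 6.52 and 6.50 in early 1 and 2 and between 2.62 and 3.41 elsewhere. Ccl5, made by T cells and macrophages, was 3.19 and 5.13 in early 1 and 2 and between 1.90 and 2.00 elsewhere. All 3 were thus highest in early 1 and 2, with early 3 at the control level, although Ccl5 stayed below the filter value of 5 in early 1. Ppbp, a platelet chemokine, was 7.30 in late 1 and between 2.16 and 2.26 in the other 8 arrays.

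Other adhesion genes of leukocyte traffic mostly had negative values in both induced groups. Of 13 tested, 0 were called against control in early (4 at an unadjusted p under 0.05, median -0.40) or late muscle (4, median -0.42), and 10 had negative values in each, against the same controls. Icam2, the constitutive endothelial ligand of the beta-2 integrins, differed by -0.61 ± 0.18 in early (adjusted p = 0.15) and -0.65 ± 0.18 in late muscle (adjusted p = 0.142), opposite in sign to Icam1. Mcam, an adhesion molecule of endothelium and pericytes, differed by -1.30 ± 0.33 in early (adjusted p = 0.117) and Aoc3, the vascular adhesion protein also abundant in adipocytes and smooth muscle, by -1.02 ± 0.30 (adjusted p = 0.151). Adipocyte markers, summed over 8 genes, were 0.626, 0.655 and 0.747 times the control mean in early 1, 2 and 3. That sum leans on its brightest genes, Car3 and Fabp4. Car3 was 14.81 ± 0.08 in control and 14.28 ± 0.36 in early muscle. The median gene of the 8 differed from its control mean by -0.882, -0.933 and -1.18 in early 1, 2 and 3. The part of these markers in Aoc3 was not tested. In early against late, Glg1, a Golgi protein that binds E-selectin, was higher (0.80 ± 0.19, adjusted p = 0.0341), the only 1 called, beside 11.5% of all genes. The other 12 of 13 were not called, among them the junction molecule Jam2 (-0.75 ± 0.22, adjusted p = 0.0593). Leaving out 1 array gave 0 to 2 called on this list.

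Of the proteases and inflammasome genes that release or trim these proteins 6 of 10 were tested, and 0 were called in any comparison. At an unadjusted p under 0.05 there were 1, 3 and 4 in early against control, late against control and early against late. Dpp4, which inactivates CXCL12 by trimming it, was 5.81 ± 0.12 in early against 6.40 ± 0.29 in control muscle (-0.59 ± 0.21, adjusted p = 0.202). Adam10, which sheds CXCL16 from the membrane, differed by -0.31 ± 0.14 in early (adjusted p = 0.271) and -0.33 ± 0.14 in late muscle (adjusted p = 0.271). The inflammasome adaptor Pycard differed by 0.80 ± 0.59 in early against control (adjusted p = 0.478). The matrix protease Mmp14 differed by -1.05 ± 0.34 and Mmp2 by -0.42 ± 0.17 in late against control, and Mmp14 by 1.22 ± 0.34 in early against late (adjusted p = 0.052).

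Regulators of NF-kappaB, the factor that drives Icam1, Vcam1 and Ccl2 in textbook accounts, differed among the early arrays. Nfkb2, the precursor subunit of the noncanonical pathway, was 5.79 ± 0.11 in control and 9.12, 9.12 and 5.88 in early 1, 2 and 3. Its partner Relb was 5.73 ± 0.18 in control, 8.22, 8.08 and 5.89 in early 1, 2 and 3, and 4.73 ± 0.38 in late muscle. The inhibitor gene Nfkbie was 8.92, 8.91 and 5.66, and Birc3, an inhibitor of apoptosis, 9.06, 9.32 and 7.10 in the same early arrays, against control means of 5.64 and 7.07. Early 1 and 2 were thus well above the controls for these genes and early 3 within or near their range. Vcam1 was below the controls in all 3 early arrays, Ccl2 stayed dim, and Icam1 stood out in early 2 alone. Cxcl10 and Cx3cl1, by contrast, were high in early 1 and 2. The part of NF-kappaB in any of these values was not tested. The macrophage marker sums were highest in the same early 1 and 2, with 18 of 19 markers tested, and their part in these genes was not tested.

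Of 15 genes tested on that list, 0 were called in early against control, 6 had an unadjusted p under 0.05 and 12 were positive (median 0.37). Differences were 2.25 ± 0.76 for Nfkb2 (adjusted p = 0.185) and 1.67 ± 0.54 for Relb (adjusted p = 0.181). Without early 3, 7 of the 15 were called, beside 18.1% of all genes. Late against control had 0 called and 1 at an unadjusted p under 0.05, Ikbkg, the regulatory subunit of the kinase complex (0.37 ± 0.15), with Tnfrsf1a, a TNF receptor, at -0.48 ± 0.23. In early against late, where 11.5% of all genes were called, 2 of the 15 were called, both higher: Relb (2.67 ± 0.54, adjusted p = 0.0251) and Traf2, a signalling adaptor (1.46 ± 0.35, adjusted p = 0.0358). That count was 8 without early 3, beside 30.5% of all genes, and 0 without control 2, early 1, early 2, late 1 or late 2.

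**Figure D4:**
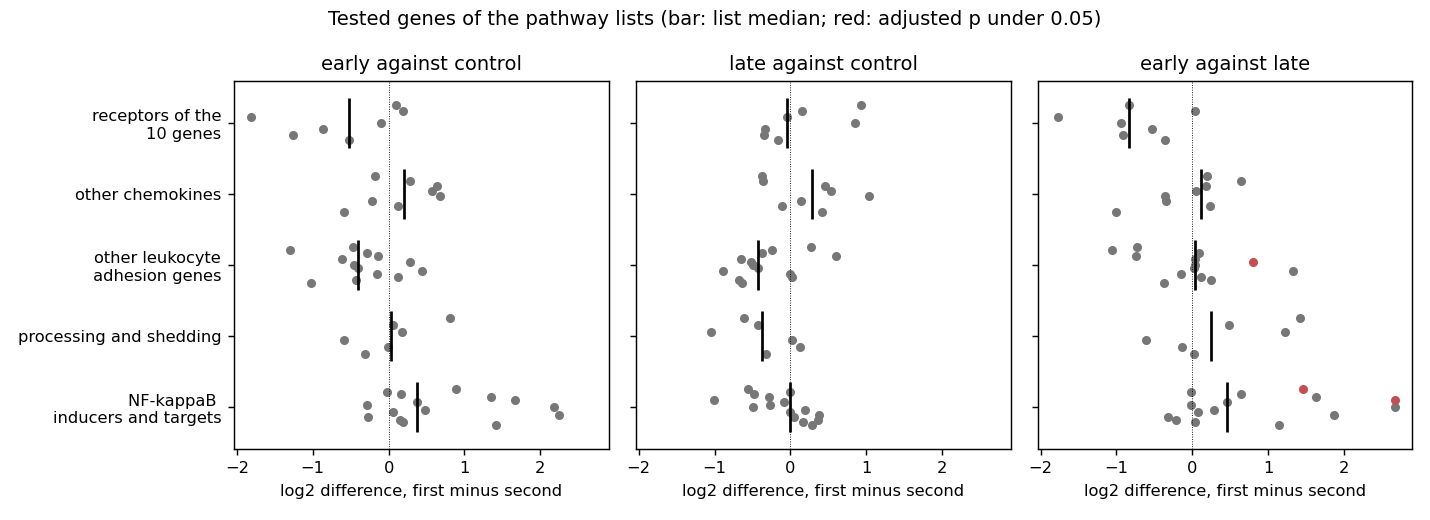
Log2 differences (x axis) of the tested genes of the 5 pathway lists (y axis) in the 3 comparisons, with 1 point per gene, a bar at the list median and red where the adjusted p was under 0.05; the vertical offset of points within a list has no meaning. The 3 red points, Glg1, Relb and Traf2, all lie in early against late, and the NF-kappaB list reaches 2.25 in early against control with 0 red points.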

How the data were processed

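RNA from 9 quadriceps samples was read on Affymetrix arrays after biotin labelling, per the labels' protocols. The authors deposited log2 values from GCRMA, per the submitters' processing notes, with version and settings not given in the sources used here. GCRMA corrects background by probe base composition and makes arrays' distributions alike, so it narrows the spread of dim probe sets and hides a shift common to all genes. Array medians lay between 3.41 and 3.45.

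The platform annotation named the probe sets (34945 with 1 gene, 932 with several, 9224 with none or being controls), whose symbols needed 0 updates against GRCm38.p6. Those above 5 on the log2 scale in at least 3 arrays (16048) were kept, and the brightest of each gene gave 9697 genes, 7 of the 10 described among them. Their 9 passing probe sets were also tested over all 16048. Groups came from the sample titles. limma 3.58.1 in R 4.3.3 fitted 3 group means to all 9 arrays (6 residual and 2.84 prior degrees of freedom), with Benjamini-Hochberg adjustment and a call at adjusted p under 0.05. The script was tested on simulated data. With 3 against 3 arrays the smallest two-sided exact permutation p is 0.1, so no such test was run. The number of arrays limits the precision, no batch is given, and nothing says what replicates share, so p-values reflect only sample-to-sample spread here, which may be technical.

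Deviations of same-numbered early and late arrays from their group means correlated at 0.168, 0.201 and 0.16 over genes. With controls, early arrays gave 0.35, 0.11 and -0.04 and late arrays 0.08, -0.17 and -0.11. Arrays of different numbers were not compared and the labels give no pairing, so whether the numbers pair samples is not settled. The fit reported has no block.

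Named genes are the 10, with all probe sets; from each pathway list up to 4 with the smallest p in early against control and 2 in each other comparison; the 3 most correlated with Il15, Cxcl12 and Vcam1; H2-K1; and the brightest markers. Dim genes and other markers were named after their values were seen. The genes, lists and tests were chosen with earlier results of these data known. Alternatives were the filter, probe set choice, shared-probe sets, centring, the arrays fitted, array weights, the replicate block and leaving out each array.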

Additional observations from a re-analysis of the deposited data

Results flagged for a closer look

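Il15 differed between the 2 inductions by a test of the difference itself: early against late was -1.39 ± 0.34 (limma, adjusted p = 0.0376), with all 3 early arrays below all 3 late arrays. Against the shared controls the values were -0.11 in early and 1.28 in late muscle. Late mice were 50 days old and early mice 35, so age and time of induction cannot be told apart.

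Vcam1 also differed between the inductions, at -0.97 ± 0.25 (limma, adjusted p = 0.0422), again with all 3 early arrays below all 3 late arrays. Here the early value was the one away from control, at -0.94, and the late value was 0.03. This call was lost with the replicate number as a block (adjusted p = 0.0624), and it was lost in 7 of the 9 fits that left out 1 array, as was that of Il15. Both calls rest on a single probe set each. In groups of 3 no array was tested as an outlier.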

How the results depend on the processing

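Leaving out 1 array moved the number of genes called over all genes from 115 to between 6 and 1756 in early against control, from 20 to between 5 and 59 in late against control, and from 1119 to between 143 and 2959 in early against late. Of the 10 genes, the number called then ran from 0 to 1, 0 to 0 and 0 to 2. With array weights 3335, 1037 and 3534 of all genes and 3, 1 and 3 of the 10 were called (Cxcl14, Icam1 and Vcam1 in early against control and Il15 in late against control); the weights were estimated from these arrays and their fit stopped before it converged. With only the 2 groups compared, 61, 12 and 38 genes were called, and 0 of the 10 in early against late. With no filter 56 were called in early against control and 584 in early against late, 0 of the 10 in the latter. Without shared-probe sets 12 genes were called in late against control. With a filter at 7 instead of 5, 1 of the 10 was called in early against late, Vcam1, and Il15 was not tested. The replicate block gave 62 genes in early against control and 5 in late against control, and 1 of the 10 in early against late, Il15. Whether the replicate numbers pair the samples is not settled.

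Of 345 recomputed differences of single genes, 296 kept direction and call, 19 lost the call, 8 gained it and 22 changed sign, 0 of these called. The sign changes with array weights were Ccl8 in early against late (-0.34), Cxcl12 in early against control (0.12) and early against late (0.10), Cxcl14 in late against control (0.30) and Il18 in late against control (0.0097). On leaving out 1 array, Cxcl12 ran from -0.11 to 0.059, -0.076 to 0.11 and -0.14 to 0.050 in early against control, late against control and early against late. Ccl8 ran from -0.56 to 0.98 and Icam1 from -0.22 to 0.17 in early against late, Il15 from -0.28 to 0.16 in early against control, and Cxcl14 from -0.28 to 0.41 and Vcam1 from -0.11 to 0.25 in late against control. Leaving out 1 array gave 0 to 7 genes of the NF-kappaB list in early against control and 0 to 8 in early against late, 0 to 2 and 0 to 3 receptors, 0 to 2 and 0 to 2 adhesion genes, 0 to 1 and 0 to 3 processing genes, and 0 to 1 other chemokines in early against control; this was added after the data were seen. The cause of these changes was not tested. Signal over background limits Ccl2, Ccl7 and Cxcl16.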

Other observations

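The late arrays did not rank alike across these genes. Late 1 was the lowest late array for Il15, Il18, Ccl8, Cxcl14 and Icam1 and the highest for Vcam1, Il15ra and Itgb2. Cxcl9, an interferon gamma-induced T cell attractant named here after its values were seen, was 2.56, 7.11 and 6.24 in late 1, 2 and 3, against 5.66 ± 0.14 in control and 5.94 ± 0.57 in early muscle, so the late arrays held both its lowest and its highest value.

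Exactly equal deposited values recurred among dim genes of this set: Il18, Icam1 and Ccl2 each held the same number in 3 arrays and Ccl8 in 2. Over all tested genes 5.27% shared a value in at least 3 arrays, 9.14% of the 2451 genes with a mean from 5 to 7 and 2.66% of the 3763 genes with a mean of 9 or more.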
